A study of Mus musculus with 10 samples.

Results

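De novo lipogenesis, the making of fatty acids from acetyl-CoA, was followed here through 10 genes in 3T3-L1 adipocytes: Slc25a1, Acly, Acss2, Acaca, Acacb, Fasn, Me1, Thrsp, Srebf1 and Mlxipl. They were chosen by name, and every probe set annotated to them was read on all 10 arrays. The 10 genes are among 18193 with a probe set of their own and were read by 22 probe sets, of which 18 passed the filter on low values and were tested. The other 4, 1 each for Acly, Acacb, Thrsp and Acss2, lay at the floor of the scale on all 10 arrays, and each of the 10 genes kept at least 1 tested probe set. A further probe set names both Gssos2 and Acss2 and was not used.

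3T3-L1 is a mouse fibroblast line that can be turned into fat-storing adipocytes in culture. The cultures received c9t11 CLA, called CLA here, a conjugated form of linoleic acid named for its cis-9 and trans-11 double bonds, or LA, the usual short name of linoleic acid, which the labels do not spell out, and RNA was taken at 8 h or 12 h. CLA has 1 array at 8 h and 1 at 12 h, both numbered biological replicate 1; LA has 4 arrays at each time, numbered 1 to 4. The doses, the vehicle and the state of differentiation are not given in the sources used here, and all 10 arrays come from a single cell line.

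In lipogenesis, citrate leaves the mitochondrion and is split into acetyl-CoA in the cytosol, acetyl-CoA carboxylase turns acetyl-CoA into malonyl-CoA, and fatty acid synthase builds palmitate from both with reducing power from NADPH. In fat and liver the genes of these enzymes are known to be driven by insulin and glucose through the transcription factors SREBP-1c and ChREBP, and to be held down by polyunsaturated fatty acids, a class to which both CLA and LA belong. Each value below is a log2 normalized intensity of the gene's brightest probe set unless another is named. Intensities of different probe sets share no scale, so levels are set only against the same gene on other arrays, and values below the floor of 3.84 were raised to it. Differences are on the same log2 scale.

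The stretches before the transcription starts of 4 of the genes are shown for the letters of factors known to act in lipogenesis. Fasn and Thrsp hold several NF-Y boxes and Slc25a1 holds 3 of the 4 motifs searched. Mlxipl is the only member with a match to the sterol regulatory element in the windows searched. A further Mlxipl window, not shown, holds the 3 other motifs. The sequences are those of RefSeq on GRCm38.p6, 250 bases up to the start site, 5′ to 3′ on the gene's own strand, and capitals mark the motifs. The motifs were the sterol regulatory element (TCACNCCAC), the E-box (CACGTG), the NF-Y box (CCAAT) and the GC box (GGGCGG), each on both strands, so that an NF-Y box on the other strand reads ATTGG. In Fasn an NF-Y box of each strand overlap as CCAATTGG.
Fasn (chr11:120824548-120824797, minus strand): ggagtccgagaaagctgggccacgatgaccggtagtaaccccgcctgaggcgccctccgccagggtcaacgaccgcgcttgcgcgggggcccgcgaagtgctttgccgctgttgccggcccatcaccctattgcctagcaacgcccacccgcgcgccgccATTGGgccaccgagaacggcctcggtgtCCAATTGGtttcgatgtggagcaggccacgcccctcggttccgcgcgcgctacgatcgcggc
Thrsp (chr7:97417551-97417800, minus strand): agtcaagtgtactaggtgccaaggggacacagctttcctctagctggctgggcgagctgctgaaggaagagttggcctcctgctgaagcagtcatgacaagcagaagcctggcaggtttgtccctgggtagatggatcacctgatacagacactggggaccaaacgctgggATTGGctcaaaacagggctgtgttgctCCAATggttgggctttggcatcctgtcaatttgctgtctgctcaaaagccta
Slc25a1 (chr16:17928220-17928469, minus strand): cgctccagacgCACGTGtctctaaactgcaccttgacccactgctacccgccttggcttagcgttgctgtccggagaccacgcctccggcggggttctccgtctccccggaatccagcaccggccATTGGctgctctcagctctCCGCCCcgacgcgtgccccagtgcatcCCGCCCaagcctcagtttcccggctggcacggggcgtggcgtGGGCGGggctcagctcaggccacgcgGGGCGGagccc
Mlxipl (chr5:135106641-135106890, plus strand): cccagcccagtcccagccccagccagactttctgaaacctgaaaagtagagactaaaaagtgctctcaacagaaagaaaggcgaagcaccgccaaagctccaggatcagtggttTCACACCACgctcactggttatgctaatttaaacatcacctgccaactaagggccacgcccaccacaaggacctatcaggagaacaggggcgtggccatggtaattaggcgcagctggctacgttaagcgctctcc

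All 10 genes had a RefSeq window of 250 bases before and 50 after a start, 14 windows in all, since Srebf1 has 3 and Me1 and Mlxipl have 2 each. An NF-Y box stood in a window of 9 of the 10 genes, all but Acaca, against 37.4% of 32851 mouse promoter windows of the same length. A GC box stood in 6 of 10, against 35.7% of windows. E-boxes were found in Mlxipl and Slc25a1 (7.2% of windows) and the sterol regulatory element in 1 Mlxipl window alone (1.2% of windows). Genes with several windows had more chances of a match, and a match of letters is no evidence that a factor binds. Each motif was searched as 1 set of letters in these windows, so no match does not show that a gene lacks the element.

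The levels are described in the order of the pathway, beginning with citrate and acetyl-CoA. Slc25a1, the mitochondrial citrate carrier, was at 10.71 on the CLA array at 8 h, against 10.79, 9.49, 10.56 and 10.29 on the LA arrays numbered 1 to 4. At 12 h it was at 10.97 on the CLA array, against 10.90, 9.31, 10.54 and 8.06 on the LA arrays. The CLA arrays lay close to LA number 1 at both times, and LA number 4 at 12 h stood far below the rest. Acly, ATP citrate lyase, which splits citrate into acetyl-CoA, was at 9.75 with CLA at 8 h, against 9.95, 9.23, 10.03 and 11.13 with LA. Its 12 h value was 10.82 with CLA, against 10.26, 9.13, 10.07 and 9.41 with LA. LA number 4 was thus the highest LA array at 8 h and among the lower ones at 12 h. Acss2, which makes acetyl-CoA from acetate in the cytosol, was at 7.92 with CLA at 8 h, against 7.77, 6.31, 7.74 and 9.30 with LA. Its CLA value at 12 h was 8.58, against 8.41, 6.31, 7.59 and 6.59 with LA. Here too number 4 was at the top of the LA arrays at 8 h and near the bottom at 12 h, and number 2 was the lowest at both times.

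The carboxylases differed from each other. Acaca encodes acetyl-CoA carboxylase 1, the cytosolic form that feeds fatty acid synthesis; it was at 7.92 with CLA at 8 h, against 7.64, 7.40, 8.66 and 9.63 with LA. With CLA at 12 h it was at 8.58, against 8.40, 7.78, 8.50 and 7.76 with LA. The CLA array at 12 h lay above all 4 LA arrays by a margin smaller than their spread. Acacb encodes acetyl-CoA carboxylase 2, the form at the mitochondrial surface whose malonyl-CoA restrains fatty acid oxidation. It was at 6.60 with CLA at 8 h, against 6.57, 4.56, 5.43 and 6.27 with LA, and at 6.98 with CLA at 12 h, against 6.66, 4.35, 5.47 and 4.76 with LA. All 4 arrays numbered 1, with CLA or LA, lay above the 6 other LA arrays for Acacb but not for Acaca. Among the 10 genes the profiles of these 2 carboxylases over the arrays were the least alike, with a root mean square difference of 0.87 after each was centred on its own mean.

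Fasn, fatty acid synthase, was at 11.03 with CLA at 8 h, against 11.22, 10.50, 11.66 and 12.02 with LA. At 12 h it was at 11.65 with CLA, against 11.79, 10.58, 11.65 and 10.40 with LA. Both CLA arrays lay within the LA range. Me1, the cytosolic malic enzyme, which yields NADPH, was at 9.66 with CLA at 8 h, against 9.64, 8.57, 9.43 and 10.43 with LA. At 12 h it was at 10.23 with CLA, against 9.92, 8.59, 9.73 and 8.38 with LA. Me1 followed the mean profile of the 10 genes most closely of all members (root mean square difference 0.10), and its profile and that of Acly were the most alike pair (0.25).

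Among the regulators, Thrsp (Spot 14), a nuclear and cytosolic protein known to go with high lipogenesis, was at 11.34 with CLA at 8 h, against 11.23, 10.80, 11.71 and 12.08 with LA. At 12 h it was at 11.80 with CLA, against 11.85, 10.87, 11.84 and 8.66 with LA. A single array, LA number 4 at 12 h, stood apart from the other 9. Srebf1, which encodes the SREBP-1 factors, was at 9.04 with CLA at 8 h, against 9.19, 7.61, 7.78 and 8.43 with LA. With CLA at 12 h it was at 8.69, against 8.96, 7.54, 7.91 and 7.14 with LA. As with Acacb and Slc25a1, all 4 arrays numbered 1 lay above the other 6. Mlxipl, which encodes the glucose-responsive factor ChREBP, was at 5.55 with CLA at 8 h, against 5.75, 3.84, 6.21 and 6.48 with LA, and at 5.96 with CLA at 12 h, against 5.86, 3.84, 6.69 and 4.15 with LA. Both LA arrays numbered 2 lay at the floor for Mlxipl, so differences from them are bounded by it.

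**Figure D1:**
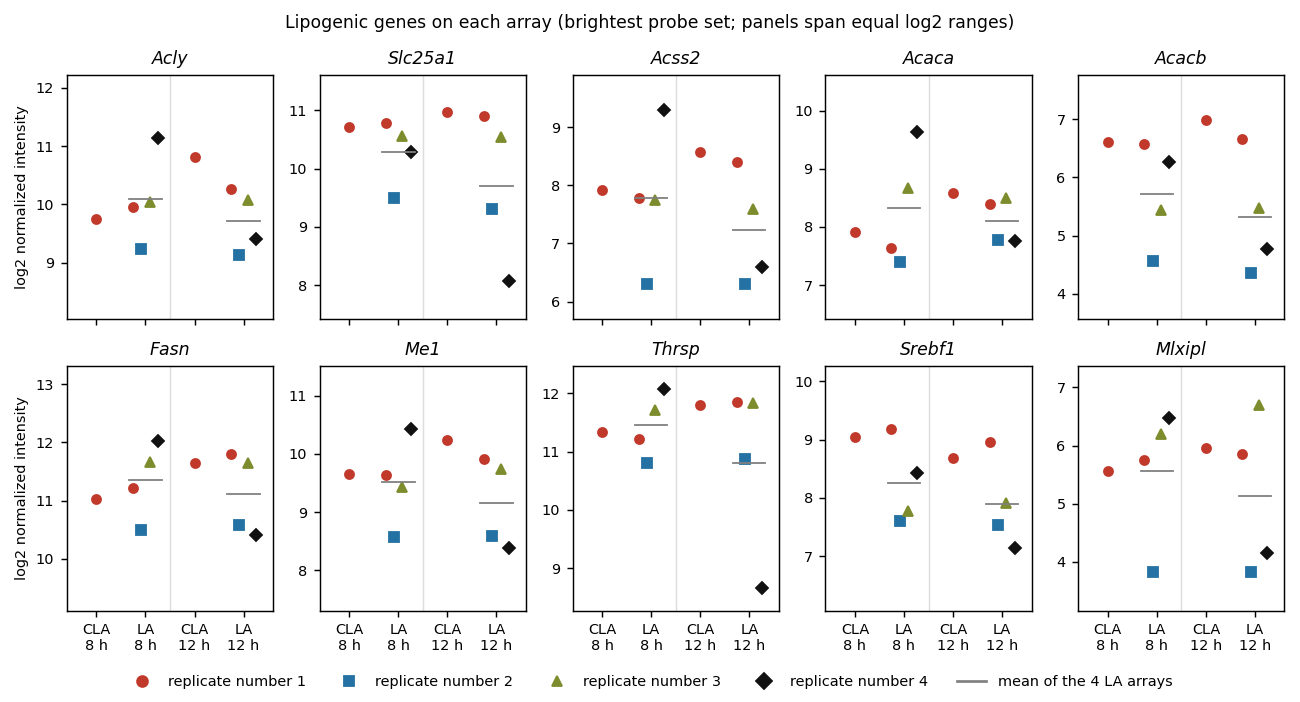
Log2 normalized intensity of each gene's brightest probe set (vertical axis, equal spans) on the 10 arrays, by fatty acid and time, with CLA left of LA; symbols give the replicate number and grey lines the mean of 4 LA arrays. The black diamonds (LA number 4) are the highest LA value at 8 h in 7 genes and the lowest at 12 h in 6. The blue squares (number 2) are the lowest LA value at 8 h in all 10 genes. For Acacb, Srebf1 and Slc25a1 the red circles (number 1) lie above all other arrays.

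The 10 genes ordered the LA arrays in much the same way. At 8 h, number 2 was the lowest LA array for 10 of 10 genes, and number 4 was the highest for 7 and number 1 for 3. At 12 h, number 1 was the highest for 8 and number 3 for 2, and number 4 was the lowest for 6 and number 2 for 4. The mean of the 10 genes, each centred on its own mean over the 10 arrays, was 0.22 with CLA at 8 h, against 0.24, -0.91, 0.18 and 0.87 on the LA arrays. At 12 h it was 0.69 with CLA, against 0.56, -0.91, 0.26 and -1.21 on the LA arrays. In this mean the CLA array lay within the LA arrays at 8 h and above all 4 of them at 12 h. The order of the groups ran from CLA at 12 h (0.69) and CLA at 8 h (0.22) to LA at 8 h (0.10 ± 0.74, SD, n = 4) and LA at 12 h (-0.32 ± 0.87, SD, n = 4). CLA against LA at each time and LA at 12 h against LA at 8 h were tested gene by gene, as given below, while the CLA times, with 1 array each, were not tested against each other.

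The question of the study was how CLA and LA cultures differed. No lipogenic gene passed the test of CLA against LA, over both times or at either time. Over both times all 10 lay above LA in the fit without a replicate block, with a median difference of 0.52, against 0.01 for all 27023 probe sets tested. Without the CLA array of 12 h the median was 0.06, with 5 genes above LA and 5 below, and without that of 8 h it was 1.03. The differences ranged between 0.03 for Acaca and 1.28 for Acacb, and of the 8 tested probe sets that are not the brightest, 1 of Acly lay below LA, at -0.21. Acacb averaged 6.79 ± 0.27 with CLA (SD, n = 2) and 5.51 ± 0.91 with LA (SD, n = 8), a difference of 1.28 (SE 0.67, 95% interval -0.19 to 2.75; limma, adjusted p = 0.48). Slc25a1 averaged 10.84 ± 0.18 with CLA (SD, n = 2) and 9.99 ± 0.97 with LA (SD, n = 8), a difference of 0.85 (SE 0.62, adjusted p = 0.526 in limma). Fasn averaged 11.34 ± 0.44 with CLA (SD, n = 2) and 11.23 ± 0.65 with LA (SD, n = 8), a difference of 0.11 with a 95% interval of -0.89 to 1.12. The intervals of Acacb, Slc25a1, Acss2 and Mlxipl reach past a 4-fold difference, so these arrays do not show that CLA and LA act alike. In limma 0 of the 18 probe sets were called, with a lowest adjusted p of 0.48, and 0 of the 10 genes had an unadjusted p under 0.05; the background was 0.459% of all probe sets called, 124 in number and all higher.

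Without the replicate block, markers of undifferentiated cells lay on the other side in this comparison. All 9 preadipocyte and fibroblast markers on the array were below LA over both times, with a median of -0.86 (-1.29 at 8 h and -0.42 at 12 h) and 0 called. Their summed normalized intensity was 6681 and 13540 on the CLA arrays, against 8375 to 30472 on the LA arrays, with none at the floor on any array. With the replicate block 8 of the 9 were below LA over both times, with a median of -0.11. At 8 h all 9 were below LA with the block (median -0.74). At 12 h the direction turned with the block, with 7 above LA and 2 below (median 0.39). The part of these markers in the lipogenic differences was not tested.

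Both CLA arrays carry the number 1, so this comparison also sets number 1 against numbers 2 to 4. With the replicate number as a block, 7 of the 10 genes lay above LA and 3 below, the median was 0.09, the range -0.21 (Srebf1) to 0.23 (Acaca), and 0 were called, against a background of 0.0% (0 probe sets, 1279 at an unadjusted p under 0.05 and a lowest adjusted p of 0.206). For Acacb the blocked difference was 0.18 (-0.86 to 1.21) and for Srebf1 -0.21 (-0.92 to 0.50). Srebf1 thus lay above LA by 0.79 (SE 0.48) without the block and below it with the block. Within the arrays numbered 1 the distances were small: CLA minus LA at 8 h was between -0.21 (Acly) and 0.29 (Acaca) with a median of -0.03, and at 12 h between -0.27 (Srebf1) and 0.56 (Acly) with a median of 0.13. These are differences of single arrays and have no error of their own. On the scaling of the deposited table without a block, the median of all probe sets lay at -0.14 and 8 of the 10 genes lay above 0, Acaca (-0.28) and Mlxipl (-0.12) below.

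**Figure D2:**
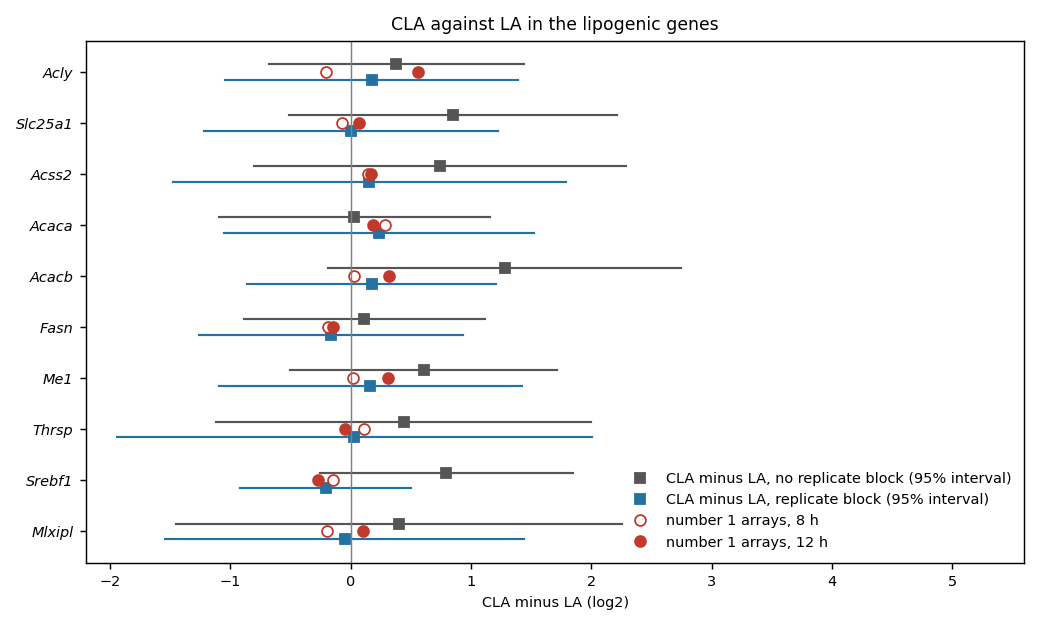
CLA minus LA on the log2 scale (horizontal axis) for the 10 genes, as limma estimates with 95% intervals without (grey) and with (blue) the replicate number as a block, and as single differences between the arrays numbered 1 at 8 h (open red) and 12 h (filled red). The grey estimates lie between 0.03 and 1.28, the blue ones between -0.21 and 0.23, and all intervals include 0.

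At 8 h, 5 of the 10 genes lay above LA and 5 below, with a median of 0.06, and 0 were called (lowest adjusted p 0.822 in limma, 0 at an unadjusted p under 0.05, background 4.36% called). With the block all 10 lay below LA at 8 h, with a median of -0.43, and again 0 were called. At 12 h all 10 lay above LA, with a median of 1.03, or 0.58 and 9 of 10 with the block; 0 were called (lowest adjusted p 0.935, 0 at an unadjusted p under 0.05, background 2.45%). The blocked estimates at each time rest on the LA time difference of all 4 numbers, number 4 included. Between the arrays numbered 1 themselves, the median at 8 h was -0.03, with 5 genes above LA and 5 below. At 12 h that median was 0.13, with 7 above and 3 below. Single LA arrays moved the medians of the fit without the block. Without LA number 4 the median at 12 h was 0.64, with all 10 still above LA, and the median at 8 h was 0.36, with 9 of 10 above. Without LA number 2 the median at 8 h was -0.35, with 3 of 10 above. The CLA array at 12 h exceeded every LA array of its time for 6 of the 10 genes, Slc25a1, Acly, Acss2, Acaca, Acacb and Me1, against 16.6% of all probe sets tested. At 8 h it did so for Acacb alone, against 22.7% of all probe sets, and the other 9 genes lay within the LA range. Of the probe sets called at 8 h and 12 h, 681 of 1179 and 416 of 661 had every LA array at the floor, which holds for no lipogenic gene's brightest probe set. Each time has a single CLA array, whose spread was taken to be that of the LA arrays.

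The differences at 12 h and at 8 h were compared in the interaction of fatty acid and time. The 10 genes lay between 0.01 (Srebf1) and 1.44 (Acly) in this difference, with a median of 0.87, and 0 were called in limma (lowest adjusted p 0.857 over the 18 probe sets, 0 at an unadjusted p under 0.05, background 5.02%). Without both LA arrays of number 4, a setting chosen after seeing the data, the median was 0.35, with 9 of 10 genes above 0. Between the CLA arrays themselves, 12 h minus 8 h was above 0 in 9 of 10 genes, from 0.26 for Slc25a1 to 1.07 for Acly, and -0.36 for Srebf1. Between the LA arrays numbered 1 the same step was likewise above 0 in 9 of 10 genes, with a median of 0.29, and -0.23 for Srebf1. In number 1 with either fatty acid, then, Srebf1 was the member at a lower level at 12 h than at 8 h.

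In the authors' deposited table, which pools both times, the ratio of the brightest probe set was above 1 for 8 of the 10 genes and below it for Acaca (0.901) and Mlxipl (0.851). The authors' deposited table gives ratios of 1.83 for Acacb, 1.64 for Slc25a1 and 1.61 for Srebf1. None of the 10 had a p under 0.05 in the authors' deposited table, where the lowest was 0.109 (Srebf1), against 22.5% of all probe sets tested. The direction of that ratio is not stated; it runs as CLA over LA, since its logarithm correlated at 0.85 with the differences fitted here, across probe sets that are not independent replicates.

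Time alone was read in the LA arrays. All 10 genes lay lower at 12 h than at 8 h in the mean, between -0.65 (Thrsp) and -0.22 (Acaca) with a median of -0.39, against 0.00 for all probe sets. None was called (limma, adjusted p of 1.0 for each of the 18 probe sets, 0 at an unadjusted p under 0.05), and the background was 0.0037% called, a single probe set. With the replicate block the estimates were the same and the lowest adjusted p was 0.706.

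The mean over the 4 numbers hid a split. In LA number 4 all 10 genes were lower at 12 h than at 8 h by more than 1 on the log2 scale, between -3.43 for Thrsp and -1.29 for Srebf1, with a median of -1.96. Only 6.1% of all probe sets tested lay below -1 in that pair. Thrsp was 10.75-fold lower at 12 h than at 8 h in number 4, Acss2 6.53-fold, Slc25a1 4.67-fold, Me1 4.13-fold and Fasn 3.07-fold. No fold is given for Mlxipl, whose 12 h value of 4.15 lies close to the floor of 3.84. In numbers 1, 2 and 3 no gene lay below -1, and the medians were 0.29, 0.00 and 0.04. Without both arrays of number 4, a setting chosen after seeing the data, the median of the 10 genes was 0.18, 7 lay above 0 and 3 below, and Thrsp turned to 0.27 and Fasn to 0.21. The time difference of the 10 genes thus rested on 1 pair of arrays, with no replicate of its own and no test. The size of that pair's difference was similar on the deposited scaling (-3.42 to -1.47, median -2.21).

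**Figure D3:**
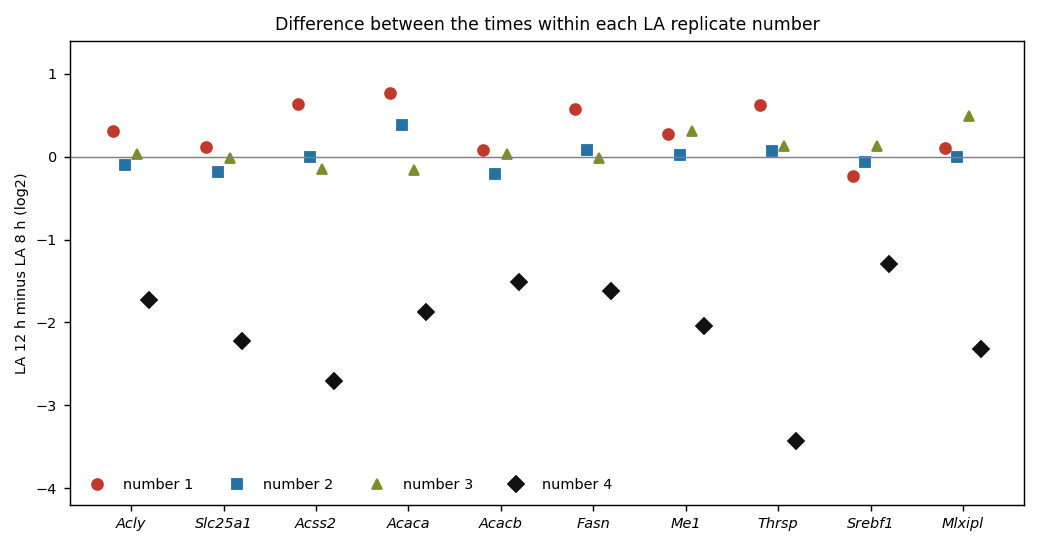
LA at 12 h minus LA at 8 h on the log2 scale (vertical axis) for each gene and replicate number. The black diamonds of number 4 lie between -3.43 and -1.29 for all 10 genes, while the 3 other numbers lie between -0.23 and 0.76.

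The other probe sets of these genes moved with the brightest in most cases. In number 4 the second Thrsp probe set differed by -4.06, the second Acss2 by -2.21, the second Me1 by -1.63 and 3 further Acly probe sets by -2.24, -1.35 and -1.21. The dim second Acaca probe set differed by -0.45, and its profile was at a root mean square difference of 0.59 from that of the brightest. The last tested Acly probe set was at the floor on 7 of 10 arrays. It read 5.65 with CLA at 8 h and 5.80 with LA number 1 at 8 h, 3.86 with LA number 1 at 12 h and the floor elsewhere.

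Signs of RNA quality and of the cell mixture moved with number 4. On its 12 h array the β-actin control probe sets gave a 3′ to 5′ ratio of 5.67, against 1.45 to 2.60 on the other 9 arrays, and the Gapdh controls gave 1.42, against 0.81 to 0.92. Between 8 h and 12 h in number 4, the 12 h value of all 9 preadipocyte and fibroblast markers on the array was the higher one, by 0.30 (Thy1) to 1.86 (Lox). A rise of these markers was not particular to number 4. Their summed intensity went from 13468 to 22273 there, from 8375 to 13601 in LA number 1 and from 6681 to 13540 with CLA. In the latter 2 pairs the lipogenic medians were 0.29 and 0.52. In LA numbers 2 (30472 to 30235) and 3 (18437 to 15727) the sum did not rise. Of the adipocyte markers, Cidec, a lipid droplet protein, differed by -1.97 and Pparg, the nuclear receptor that directs adipogenesis, by -0.95, while Adipoq (-0.21), Fabp4 (-0.05) and Lpl (-0.04) stood near 0. The part of these in the lower lipogenic values was not tested. In bulk RNA, fewer cells of a type and less RNA per cell cannot be told apart.

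The 6 lists of genes around the pathway did not all follow number 4. In that pair all 6 genes of NADPH supply lay lower at 12 h, with a median of -0.37, from -1.09 (Tkt) to -0.32 (H6pd). Of citrate and acetyl-CoA supply 5 of 6 lay lower (median -0.44). Of desaturation and elongation 7 of 10 lay lower (median -0.61), between -1.78 for Tecr, an enoyl-CoA reductase of fatty acid elongation, and 1.17 for Elovl6, the elongase of palmitate. SREBP control had 5 of 7 genes higher (median 0.11), carbohydrate and LXR control 4 of 7 lower (median -0.04) and acetyl-CoA carboxylase control 7 of 9 lower (median -0.27). Tecr thus lay within the range of the 10 lipogenic genes, beyond Srebf1 (-1.29), Acacb (-1.51), Fasn (-1.62) and Acly (-1.72).

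Replicate number was then tested among the LA arrays. In the test over the 4 numbers 0 of the 18 probe sets were called (limma F test, lowest adjusted p 0.118, 1 of the 10 genes at an unadjusted p under 0.05), against a background of 22.1%. The means of the numbers spanned 1.10 (Acly) to 2.61 (Mlxipl) between their highest and lowest, and number 2 held the lowest mean for 8 genes and number 4 for 2, Thrsp and Slc25a1. This count turned on the number 4 arrays and on the scaling. Without LA number 4 of 8 h, 6 of the 10 genes were called (21.7% of all probe sets), and without that of 12 h 7 were, all but Acaca, Fasn and Thrsp (18.6%). Without both, chosen after seeing the data, 5 were called, Acacb, Me1, Mlxipl, Slc25a1 and Srebf1 (19.0%), and after median centring 9 were, all but Acaca (67.5%). With the lowest 60% of probe sets left out 3 were called (54.5% of all), and with the brightest probe set of each gene 2 (50.1%).

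LA number 1, which shares its number with the CLA arrays, was set against numbers 2 to 4. Srebf1 was the only lipogenic gene to pass, and was higher in number 1. It averaged 9.07 ± 0.17 in LA number 1 (SD, n = 2) and 7.74 ± 0.43 in LA numbers 2 to 4 (SD, n = 6), a difference of 1.34 (SE 0.32, 95% interval 0.47 to 2.21; limma, adjusted p = 0.0432). The 2 and 6 arrays are 1 and 3 numbers, each read at 2 times. The spread between numbers is no part of the error of this test. The background was 31.6% of all probe sets called, so 1 of 10 genes called is not more than the array as a whole. Across the genes the median was 0.60, against 0.02 for all probe sets, with 9 above 0 and Acaca at -0.27. Acacb differed by 1.47 (SE 0.39, adjusted p = 0.0576) and Slc25a1 by 1.13 (SE 0.55, adjusted p = 0.203), neither past the threshold. For these 3 genes, Srebf1, Acacb and Slc25a1, both LA arrays of number 1 lay above all 6 others, a pattern held by 21.7% of all probe sets. Srebf1 lost its call on the deposited scaling (0.64, adjusted p = 0.292), with no filter on low values (adjusted p = 0.0996) and with any single LA array of numbers 1 to 3 left out (adjusted p 0.0751 to 0.237). On that scaling the median of all probe sets was -0.33, and 5 of the 10 genes lay above 0 and 5 below; after median centring the median of all was 0.72, and 7 of the 10 genes were called higher beside 67.0% of all probe sets called.

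The number of genes called in this contrast also depended on the number 4 arrays. Floors of 8, 32 and 64 and robust eBayes added Acacb to Srebf1, with 39.4%, 39.4%, 44.2% and 33.8% of all probe sets called. So did leaving out the lowest 60% of probe sets (56.7% of all called) and keeping the brightest probe set of each gene (53.1%). With LA number 4 of 8 h left out, 8 of the 10 genes were called higher in number 1, all but Fasn and Acaca, with a median of 1.09 and 35.9% of all probe sets called. With LA number 4 of 12 h left out, Acacb, Slc25a1 and Srebf1 were called, with a median of 0.20 and 31.5% of all called. With both left out, a setting chosen after seeing the data, Acacb (1.66), Me1 (0.70), Slc25a1 (0.87) and Srebf1 were called, with a median of 0.68 and 27.0% of all called. With LA number 1 of 12 h left out, none of the 10 was called, and the median was 0.08.

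**Figure D4:**
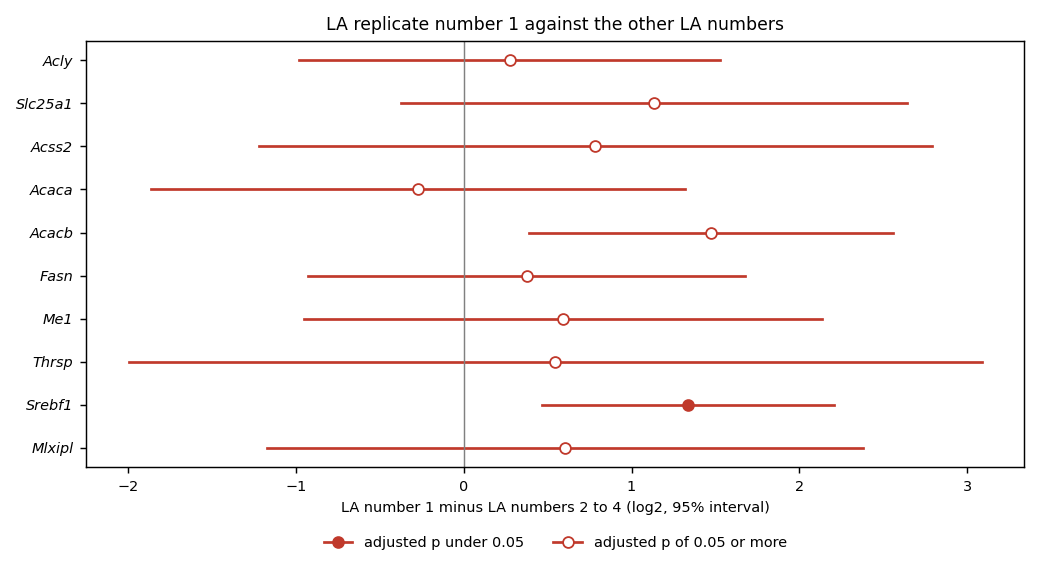
LA number 1 minus LA numbers 2 to 4 on the log2 scale (horizontal axis) with 95% intervals from limma. Srebf1 (filled, 1.34) is called, and the other 9 genes (open), between -0.27 and 1.47, are not.

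The neighbouring genes were read in the same contrast, against the 31.6% of all probe sets called. Of NADPH supply, 3 of 6 tested genes were called higher and 1 lower. Pgd of the pentose phosphate pathway differed by 0.61, H6pd of the endoplasmic reticulum by 0.88 and cytosolic Idh1 by -0.71. Of citrate and acetyl-CoA supply, 2 of 6 were called higher, citrate synthase Cs by 0.49 and pyruvate carboxylase Pcx by 0.87, and 1 lower, the pyruvate dehydrogenase subunit Pdha1 (-0.67); the pyruvate carrier Mpc1 was at 0.50 and not called. None of the 10 genes of desaturation and elongation was called; the desaturases Scd1 and Scd2 were at 0.40 and 0.11 and Elovl6 at -0.90. SREBP control had 3 of 7 called higher, among them Scap, the escort of SREBP out of the endoplasmic reticulum, by 1.33, and 2 lower, the protease Mbtps2 (-1.49) and the ubiquitin ligase part Fbxw7 (-1.35). The SREBP anchors Insig1 (0.58) and Insig2 (-0.42) were not called. Carbohydrate and LXR control had 4 of 7 called higher, with the oxysterol receptor Nr1h3 at 1.30 and its partner Rxra at 1.0, and Txnip lower (-0.60); Mlx, the partner of ChREBP, was at 0.65 and not called. Acetyl-CoA carboxylase control had 3 of 9 called higher, among them the AMP-activated kinase subunit Prkab1 at 0.89, and the catalytic subunit Prkaa1 lower at -2.005, while Prkaa2 was at -0.23 and not called. The balance of calls depended on the scaling. On the deposited scaling, carbohydrate and LXR control and SREBP control had 0 called higher, acetyl-CoA carboxylase control 1 higher and 3 lower, and desaturation and elongation 4 lower. NADPH supply had 1 higher and 1 lower there, and citrate and acetyl-CoA supply 0 higher and 1 lower. There the genes named here as lower, Idh1, Pdha1, Mbtps2, Fbxw7, Txnip and Prkaa1, were called again and Elovl6 was called lower (-1.44), while Pgd, H6pd, Cs, Pcx, Scap, Nr1h3, Rxra and Prkab1 were above 0 and not called.

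Markers of undifferentiated cells moved with number 1 as well. Their summed normalized intensity was 8375 and 13601 on the LA arrays of number 1, against 13468 to 30472 on the other 6 LA arrays, with none of the 9 markers at the floor on any array, and 4 of the 9 were called lower. Their median difference was -0.90, and all 9 lay below 0, on the deposited scaling too; after median centring 6 of 9 did. The 5 white adipocyte markers on the array summed to 27348 and 30443 in number 1, against 24107 to 32178 in the others, with 0 called. The labelled cell type bears its markers: Adipoq, Fabp4, Cidec, Lpl and Pparg were above the floor on all 10 arrays. Of the 6 macrophage genes, Itgam, Ptprc and Lyz2 were at the floor on all arrays and Cd68 on 7, while Csf1r (5.49 to 8.23) and Adgre1 (4.24 to 7.02) were above it on all 10, and the sum over the 6 macrophage genes was 124 to 378. The hepatocyte genes summed to 43 to 51, with Apoa1 at the floor on all 10 arrays and Alb on 9. The part of the undifferentiated cells' markers in the Srebf1 difference was not tested.

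Against CLA, the same lists gave 0 called genes over both times, in each of the 6 lists and in either direction. The first members of the lists were Pgd at 0.52, Idh1 at -0.41, Cs at 0.55, Scd1 at 0.20, Elovl6 at -0.89, Scap at 0.66, Insig1 at 0.62, Nr1h3 at 0.66 and Prkaa1 at -1.37, with adjusted p of 0.48 or more in limma. Without the block the medians of the lists were 0.39 for NADPH supply, 0.41 for citrate and acetyl-CoA supply, 0.08 for desaturation and elongation, 0.19 for SREBP control, 0.65 for carbohydrate and LXR control and 0.34 for acetyl-CoA carboxylase control, beside 0.52 for the 10 lipogenic genes. With the replicate block they were -0.06 for NADPH supply, 0.17 for citrate and acetyl-CoA supply, 0.11 for desaturation and elongation, -0.04 for SREBP control, 0.01 for carbohydrate and LXR control and 0.03 for acetyl-CoA carboxylase control.

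Genes outside the pathway with the most similar profile were found by the root mean square difference from the mean profile of the 10 genes over all 10 arrays, among 12887 genes. The nearest 5 were Pcyt2 (0.17), an enzyme of phosphatidylethanolamine synthesis, Klf15 (0.18), a Krüppel-like transcription factor, Nrg4 (0.19), a secreted growth factor of the neuregulin family, Fcor (0.22), a corepressor of Foxo1, and Lpin1 (0.25), a phosphatidate phosphatase. Among the members, Me1 (0.10), Fasn (0.25) and Acly (0.31) were nearest to their common mean and Thrsp (0.52) was farthest. The 10 points of each profile share their arrays, with the number 4 difference and the low values of number 2 common to all.

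Over all arrays, 62.0% of the variance lay on the first principal component, which set the 4 arrays numbered 1 (-104.3 to -59.8) apart from the other 6 (34.3 to 102.5). The arrays numbered 1 were dimmer as deposited, with 75th percentiles of 26.4 to 39.5 against 54.4 to 76.8. What a replicate number stands for is not stated, and the number of arrays limits the precision. Without a replicate block, p-values measure the spread between arrays as labelled. In the blocked fits and the tests of LA replicate numbers, they measure how far arrays of the same number disagree. The spread between numbers does not enter there, so these p-values do not extend to further numbers.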

How the data were processed

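Total RNA of 10 cultures was hybridised to Affymetrix arrays. The authors' deposited intensity of each probe set is linear, and 22.5% of the values do not exceed 0. How such values arose is not stated, and the software and scaling are not given in the sources used here. The authors' deposited table pools both times and holds a ratio, a fold change, a p-value, and the ratio and its error as log10 values.

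The 64 array controls were left out of 45101 probe sets; 34945 have 1 gene symbol, 932 several and 9160 none, and names come from GEO's platform annotation (34754 found by Entrez identifier, 0 changed). Deposited intensities were quantile normalized, raised to a floor of 14.3 (the size of the 2nd percentile) and put on the log2 scale, and the lowest 40% by mean were left out, which left 27023, with 29.2% of values at the floor. Differences were fitted with limma 3.58.1 in R 4.3.3 (lmFit and eBayes, trend on mean intensity; two-sided p adjusted by Benjamini-Hochberg across all 27023; called at an adjusted p under 0.05); the fitting code was checked on simulated data.

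The labels number the replicates. After the time means were removed, LA arrays of the same number correlated at 0.821, 0.735, 0.408 and 0.542 across probe sets, all above 0.1. Arrays of different numbers correlated between -0.609 and 0.282, of which 0.282 and 0.145 were also above 0.1. The numbers were taken to pair the arrays, and blocked values are given where they alter a count or direction. The rule for named genes was every probe set of the 10 genes, the first 3 tested genes of each list and the 5 nearest profiles; list genes named beyond these were chosen after their values were seen. The 10 genes and all lists were chosen with earlier results of these data known. The alternatives tried changed the scaling, floor, filter, variance model, block, choice of probe set or set of arrays, or used the authors' deposited table. Plots were made in matplotlib 3.10.9.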

Additional observations from a re-analysis of the deposited data

How the results depend on the processing

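The counts of called probe sets depended on the processing, and the cause was not tested. For CLA against LA over both times, 124 became 26 on the deposited scaling, 0 after median centring, with a floor of 8, with the lowest 60% left out, with the brightest probe set of each gene, with the replicate block and with the replicate 1 arrays alone, 46 and 4 with floors of 32 and 64, 31 without the trend, 60 with robust eBayes, 62 without both LA arrays of number 4, 872 in the authors' deposited table and 39 to 1183 with 1 array left out. At 8 h the 1179 became 245, 0, 51, 534 and 191 (deposited scaling, median centring, floors of 8, 32 and 64), 0 with the lowest 60% left out or the brightest probe sets, 763 with robust eBayes, 498 without calls whose LA arrays are all at the floor and 1085 to 1782 with 1 array left out. At 12 h the 661 became 170, 0, 0, 133 and 48 in the same order, 0 with the lowest 60% left out or the brightest probe sets, 358 without the trend, 305 with robust eBayes, 1154 from the arrays of that time alone, 245 without calls whose LA arrays are all at the floor and 623 to 1057 with 1 array left out. For the interaction the 1357 became 204, 0, 0, 455 and 121, then 0, 0, 506, 372 and 377 (lowest 60% left out, brightest probe sets, no trend, robust eBayes, calls with LA at the floor left out). For LA over time the 1 call became 0 under 13 alternatives, the replicate block among them, and 0 to 4 with 1 array left out. For LA replicate numbers the 5961 became 18252 after median centring, 1853 with no filter, 9825 with the lowest 60% left out and 0 to 5961 with 1 array left out. For LA number 1 the 8538 became 18100, 5172 with no filter and 3478 to 9691. The alternatives with all LA number 4 arrays, the replicate 1 arrays or the floor calls left out were chosen after seeing the data.

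Among the 10 genes no call of CLA against LA over both times was made under any alternative run (lowest adjusted p 0.217 in limma, for Acacb without LA number 1 of 12 h). The sign of CLA against LA over both times turned for Acaca (-0.28) and Mlxipl (-0.12) on the deposited scaling. A floor of 64 turned Mlxipl (-0.17). The replicate block turned Fasn (-0.17), Mlxipl (-0.050) and Srebf1 (-0.21), and a random block turned Fasn (-0.086). The replicate 1 arrays alone give the same estimates as the replicate block by construction, since both CLA arrays carry that number. With 1 array left out the difference spanned -0.34 to 1.10 for Acly, -0.41 to 0.47 for Acaca and -0.32 to 0.55 for Fasn. It spanned -0.12 to 0.998 for Thrsp and -0.015 to 0.82 for Mlxipl. For LA over time, leaving out both LA arrays of number 4 gave 0.080 for Acly, 0.33 for Acaca, 0.21 for Fasn, 0.20 for Me1, 0.27 for Thrsp, 0.20 for Mlxipl and 0.16 for Acss2, and a floor of 64 gave 0.0021 for Mlxipl; with 1 array left out the values spanned -0.53 to 0.21 for Acaca, -0.999 to 0.065 for Thrsp and -1.01 to 0.0001 for Mlxipl. For LA number 1, the deposited scaling gave -0.28 for Acly, -0.036 for Me1, -0.37 for Mlxipl and -0.040 for Acss2, and a floor of 64 gave -0.23 for Mlxipl. With 1 array left out that contrast spanned -0.18 to 0.73 for Acly, -0.93 to 0.39 for Acaca, -0.17 to 0.92 for Fasn, -0.30 to 1.39 for Thrsp and -0.0077 to 1.58 for Acss2. Of 210 values of this contrast under alternatives, 13 changed sign, 24 became called and 8 lost the call. The replicate block changed no call of the 10 genes in any comparison fitted with it. Values near the floor, above all those of Mlxipl, are limited by background.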
